A study of Mus musculus with 6 samples.

Results

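The clustered protocadherins are adhesion proteins of the cadherin superfamily that sit on the surface of neurons, and their genes lie in 3 neighbouring clusters, alpha, beta and gamma, on mouse chromosome 18. The genes described here are the protein-coding rows of the deposited table whose symbol, read with its letter case, starts with Pcdha, Pcdhb or Pcdhg and goes on to the gene's number. They are 44 of the 43629 rows: 8 of the alpha cluster, 22 of the beta cluster and 14 of the gamma cluster. The choice used no measured value, and all 44 passed the filter on low values. A further 13 protein-coding genes of the clusters, found by their Ensembl identifiers, stand in the table under a symbol that the rule does not match, and are called genes listed under another symbol here. Pcdha1, Pcdha2, Pcdha11, Pcdha12, Pcdhac1 and Pcdhac2 are listed as PCDHA9, and Pcdhga3, Pcdhga8, Pcdhga11 and Pcdhgc3 are listed as PCDHGB6. Pcdhga9, Pcdhga12 and Pcdhgc5 carry their own symbol in capitals. These 13 are not among the 44 and are given separately under their own names, and 57 genes make up the clusters when both sets are joined.

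RNA was sequenced from medulloblastomas of Math1-Cre SmoM2.c/wt mice and from the cerebella of SmoM2.c/wt control mice, with 3 libraries in each group. All mice were female, of C57BL/6 background and at postnatal day 35, and the controls were littermates with the SmoM2 allele and no Cre. SmoM2 is an active form of Smoothened, the transducer of Hedgehog signalling, and Math1-Cre acts in the granule neuron lineage, so the tumors arise from granule neuron progenitors while the libraries hold the RNA of every cell type in the piece taken. The comparison asked how the level of each transcript differed between tumor and control cerebellum. No label says that each numbered library came from its own mouse, so a p-value covers the spread among these libraries alone, and that spread may be technical.

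Each alpha and gamma gene consists of its own large first exon, which has its own promoter and encodes the outer part of the protein, spliced to 3′ exons that all genes of that cluster share and that encode a common inner part. Beta genes have no shared 3′ exons. In most neurons a few of the alternate alpha, beta and gamma genes are switched on apparently at random, a choice that depends on CTCF, cohesin and DNA methylation at the promoters. The C-type genes at the 3′ ends of the alpha and gamma clusters are used more uniformly. Proteins of different clusters pair on the membrane and bind identical sets on other membranes, which lets a neuron tell its own branches from those of others. In the mouse cerebellum the gamma genes are known for the self-avoidance of Purkinje cell dendrites. Few of the alternate genes have a known role of their own.

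Each library held between 44902217 and 69550200 reads, as recovered from the deposited values. The values given below are counts divided by the authors' size factors, called normalized counts, and 3 counts equal 2.17 to 3.57 normalized counts depending on the library. The tissue labels were checked on marker genes. All 12 markers of mature granule neurons were lower in tumor, with summed levels of 33733 to 56335 in tumor libraries and 367882 to 416612 in control libraries. Of 11 markers of granule neuron progenitors 10 were higher, with sums of 213852 to 240908 in tumor libraries and 57814 to 65029.8 in control libraries. Lower in tumor were also 11 of 12 Purkinje cell markers, all 11 interneuron markers and all 12 oligodendrocyte markers. So were 8 of 12 markers of astrocytes and Bergmann glia, 10 of 12 of choroid plexus and 10 of 12 of endothelial and mural cells. In these lists Foxp2 (Purkinje cells), Gfap, Sox9 and Fabp7 (astrocytes and Bergmann glia) and Otx2 (choroid plexus) were called higher. Higher were 10 of 12 markers of newborn granule neurons, 5 of 7 of oligodendrocyte precursors, 11 of 12 of microglia and all 12 of cycling cells. Neurod1 and Stmn2 of the newborn granule neuron list and Sox10 of the precursor list were called lower. No marker of any list was at 0 in all libraries of a group. In such bulk samples fewer cells of a type and less RNA per cell cannot be told apart.

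Most clustered protocadherin genes were lower in tumor, by modest folds, and only Pcdhb5 among the 44 was higher. At a Benjamini-Hochberg adjusted p under 0.05 in limma, 29 of the 44 were lower, 1 was higher and 14 were not called. Over all 22117 genes tested, 31.5% were called lower and 30.6% were called higher. The lower share among the 44 was 65.9%, and their median log2 fold change was -0.61, beside -0.02 over all genes tested. The fold change was negative for 41 of the 44. In 30 of them all 3 tumor libraries lay below all 3 control libraries, an order found in 34.5% of all genes tested. The opposite order, every tumor library above every control library, occurred for Pcdhb5 alone and for 33.2% of all genes tested. A decrease of at least 2-fold was called for 10 of the 44, a share close to the 20.5% of all genes tested.

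The summed level of the genes matched by the rule fell in each cluster. The 8 alpha genes summed to 332, 279.7 and 446 normalized counts in tumor libraries 1, 2 and 3, against 504, 792 and 723 in control libraries 1, 2 and 3. The 22 beta genes summed to 6490.1, 6448 and 7593 in tumor, against 9822, 10986 and 9840.4 in control. The 14 gamma genes summed to 3084, 3895 and 4464 in tumor, against 5101, 6343 and 6452 in control. In all 3 sums every tumor library stood below every control library, with tumor library 3 the highest of its group. The gamma sum leaves out Pcdhgc3, which is listed under another symbol. With all 21 gamma genes the groups overlapped, at a ratio of 0.943, as given below. The tumor mean divided by the control mean was 0.524 for alpha (353 ± 84.8 and 673 ± 150.5, SD, n = 3 each). It was 0.670 for beta (6844 ± 649.5 and 10216 ± 667) and 0.639 for gamma (3814 ± 694 and 5965 ± 750.5). These sums describe the genes matched by the rule and were not tested.

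**Figure D1:**
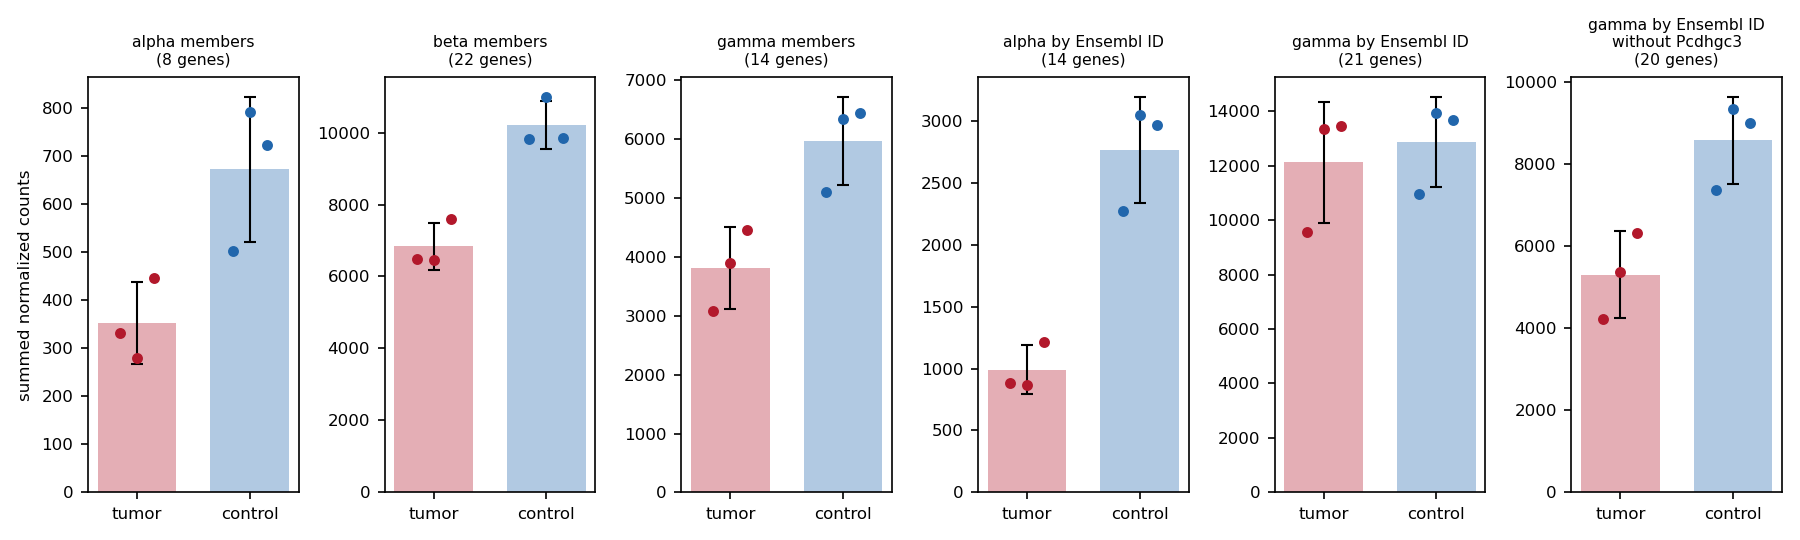
Summed normalized counts of each cluster in tumor (red, left) and control (blue, right) cerebellum, with 1 point per library and bars giving the mean ± SD of 3 libraries. The alpha, beta and gamma sums stand at 0.524, 0.670 and 0.639 of control, while joining the genes listed under another symbol takes alpha to 0.358 and gamma to 0.943, or 0.619 without Pcdhgc3.

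When the genes listed under another symbol were joined to their clusters, the alpha ratio fell to 0.358 and the gamma ratio rose to 0.943. The 14 alpha genes then summed to 988 ± 197 in tumor and 2762 ± 429 in control. The 21 gamma genes summed to 12122 ± 2214 in tumor and 12860.1 ± 1659 in control, and here the groups overlapped. Without Pcdhgc3 they no longer did, as the other 20 gamma genes summed to 5305 ± 1056 in tumor and 8567 ± 1057 in control, a ratio of 0.619. Of the 57 genes, 38 were lower and 2 higher, with a median log2 fold change of -0.71. Over all genes tested, 31.5% were lower and 30.6% higher.

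The alpha cluster spans 36930184 to 37187661 of chromosome 18 on the plus strand (mm10). Of its 8 genes matched by the rule, 4 were lower, each by over 3-fold, and 4 were not called. Their median log2 fold change was -1.08. Over all genes tested, 31.5% were lower, and 20.5% were lower by at least 2-fold. Pcdha5 had 26.7, 12.3 and 18.7 normalized counts in tumor libraries 1, 2 and 3, against 61.4, 108 and 99.4 in control libraries. Its highest tumor library lay well under its lowest control library, and its log2 fold change was -2.19 ± 0.39 (SE), a 4.55-fold decrease with an adjusted p of 0.000761 in limma. Pcdha6 had 15.2, 12.3 and 18.7 in tumor, against 43.6, 72.5 and 95.2 in control, a 4.21-fold decrease (adjusted p = 0.00112, limma). Pcdha7 had 12.3, 20.8 and 42.3 in tumor, against 63.7, 105 and 96.2 in control, a 3.76-fold decrease (adjusted p = 0.00432, limma). The tumor values of these genes rest on few reads, 53 for Pcdha6 and 82 for Pcdha7 over all 3 libraries, but none of the 3 overlapped between groups. Pcdha3 had 20.9, 21.7 and 32.5 in tumor, against 81.5, 79.7 and 79.1 in control, a 3.17-fold decrease (adjusted p = 0.000998, limma). All 4 calls held under every alternative tried.

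The 4 alpha genes that were not called all overlapped between groups. Pcdha9 averaged 103 ± 27.2 normalized counts in tumor and 151 ± 56.9 in control, and Pcdha10 averaged 133 ± 16.9 in tumor and 169 ± 34.2 in control (SD, n = 3). Both had more counts than any of the 4 genes that fell. Without control library 1, the lowest control for Pcdha9, that gene's log2 fold change was -0.83 with an adjusted p of 0.0440. Pcdha4 and Pcdha8 had few reads, with 37 and 66 over the tumor libraries and 35 and 31 over the control libraries. Pcdha4 had 6.50, 3.78 and 23.6 in tumor, against 6.70, 15.5 and 17.1 in control. It has 494 bases of exon that no other gene of the same strand shares, the fewest of the alpha cluster. Per kilobase of these bases it averaged 22.9 normalized counts in tumor and 26.5 in control. Pcdha8 had 13.7, 15.1 and 30.5 normalized counts in tumor, against 12.3, 0 and 21.4 in control. Its fitted log2 fold change of 1.55 ± 1.01 did not pass the test (adjusted p = 0.212, limma). It was 0.18 without control library 2, where the gene had no read. The row named Pcdha10 follows RefSeq's name for its Entrez identifier, while GENCODE M21 names its Ensembl identifier Pcdha11.

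Of the 6 alpha genes listed under another symbol 4 were lower, where 31.5% of all genes tested were lower. Among these 4 were the C-type genes given further on. Pcdha2 had 10.8, 34.96 and 20.7 in tumor, against 71.5, 126 and 104 in control, a 4.71-fold decrease (adjusted p = 0.00146, limma). Pcdha1 had no read in tumor libraries 1 and 2 and 10.8 in tumor library 3, against 19.0, 7.13 and 48.1 in control. Its groups overlapped, its adjusted p of 0.0223 came from 11 tumor reads and 68 control reads, and the call was lost in 7 of 16 alternatives, with adjusted p from 0.00126 to 0.248. Among those, leaving out tumor library 1 gave 0.0848, tumor library 2 gave 0.0908, control library 1 gave 0.0601 and control library 3 gave 0.0977. Pcdha11 and Pcdha12 were not called, with log2 fold changes of -0.49 and -0.59. Along the 12 alternate alpha genes the called decreases lay toward the 5′ end. Of the first 7 genes 6, all but Pcdha4, were lower, and Pcdha8 to Pcdha12 were not called. The Spearman correlation between order and log2 fold change was 0.64 across these 12 genes. It was 0.42 across all 14 alpha genes, with the C-type genes included. Across the gamma cluster it was 0.27 for all 21 genes and 0.40 for the 18 A and B genes. These correlations are given as descriptions. The genes are not independent points, since they share libraries and, in part, depth.

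**Figure D2:**
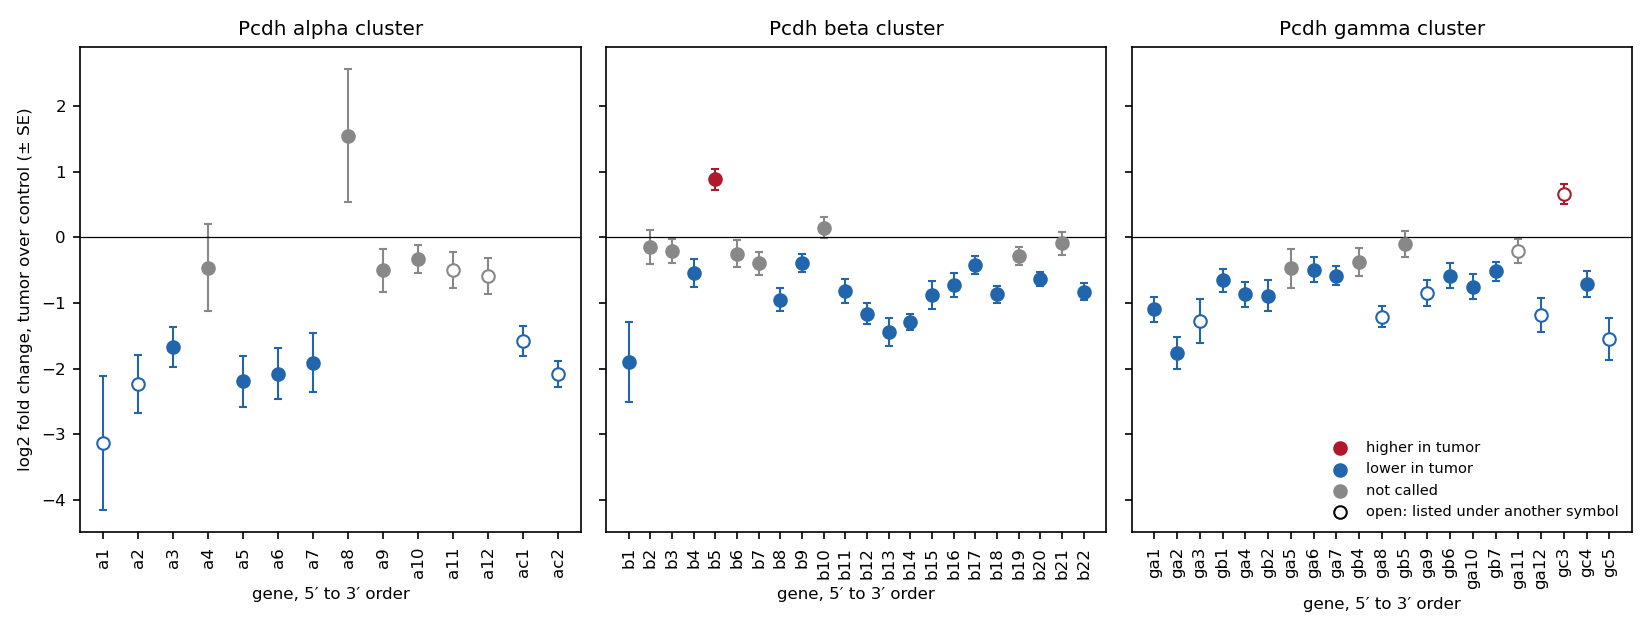
Log2 fold change, tumor over control, with its standard error (vertical axis) for all 57 cluster genes in their 5′ to 3′ order (horizontal axis), where blue marks lower, red higher and grey not called, and open circles mark genes listed under another symbol. Pcdhb5 at 0.88 and Pcdhgc3 at 0.66 are the called increases, and among the called decreases of the alpha cluster are Pcdha1 at -3.13 at the 5′ end and Pcdhac2 at -2.07 at the 3′ end.

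The beta cluster spans 37264938 to 37524479 of chromosome 18. Each of its 22 genes encodes a whole protein that lacks the inner part common to the other clusters, and 19 of them share no exon base with another gene of either strand in GENCODE M21. Of the 22, 14 were lower, 1 was higher and 7 were not called, with a median log2 fold change of -0.59. Over all genes tested, 31.5% were lower and 30.6% higher. Only 4 of the 22 had a called decrease of at least 2-fold, beside 20.5% of all genes tested. They were Pcdhb1, Pcdhb12, Pcdhb13 and Pcdhb14. Pcdhb14 had 369, 419 and 427 normalized counts in tumor, against 942, 1068 and 959 in control. The groups were far apart, and the decrease was 2.44-fold (log2 fold change -1.29 ± 0.12, SE, adjusted p = 7.53e-06, limma). Pcdhb13, its neighbour, had 107, 163 and 168 in tumor, against 363, 446 and 364 in control, a 2.70-fold decrease (adjusted p = 0.000224, limma). Pcdhb12 on its other side averaged 148 ± 7.06 in tumor and 334 ± 31.3 in control, a 2.24-fold decrease (adjusted p = 0.000155, limma). Part of the Pcdhb12 exon is overlapped by a gene on the other strand.

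Pcdhb1, which stands apart from the other beta genes at the 5′ end and lacks the promoter element they share, was the least abundant of the 44. It had 0.722, 1.89 and 0 normalized counts in tumor, against 5.58, 3.57 and 7.48 in control. These are 3 reads against 15, a rate ratio of 0.154 with an exact 95% interval of 0.0287 to 0.546 that covers counting error only. The groups did not overlap and the adjusted p was 0.0214 in limma, but the call was lost in 4 of 15 alternatives, with adjusted p from 0.0141 to 0.113. It was 0.0594 without tumor library 3, 0.0563 without control library 1 and 0.0767 without control library 3.

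Pcdhb5 moved the other way. It had 407, 432 and 399 normalized counts in tumor libraries 1, 2 and 3, against 199.9, 265 and 209.6 in control libraries. Every tumor library lay above every control library, and the log2 fold change was 0.88 ± 0.16 (SE), a 1.84-fold increase with an adjusted p of 0.00085 in limma. The call held under every alternative. Its share of all beta counts was 6.07% ± 0.737 in tumor and 2.19% ± 0.197 in control (SD, n = 3). Of its neighbours, Pcdhb4 was called lower and Pcdhb6, with a log2 fold change of -0.25, was not called.

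The smallest called decreases of the beta cluster were those of Pcdhb9 and Pcdhb17. Pcdhb9 had 509.8, 481 and 632 normalized counts in tumor, against 637, 792 and 692 in control, a 1.31-fold decrease (adjusted p = 0.0377, limma). Pcdhb17 had 616, 691 and 735 in tumor, against 883, 1068 and 783 in control, a 1.33-fold decrease (adjusted p = 0.0249, limma). In both the highest tumor library came close to the lowest control library. The Pcdhb9 call was lost in 6 of 16 alternatives (adjusted p 0.00921 to 0.152), among them those without tumor library 1 (0.0980), tumor library 2 (0.0946), control library 2 (0.152) and control library 3 (0.0876). The Pcdhb17 call was lost in 5 (adjusted p 0.0126 to 0.115), among them those without tumor library 1 (0.0820), control library 1 (0.0617) and control library 2 (0.115). A further call near the threshold was that of Pcdhb4 (adjusted p = 0.0441), lost in 10 of 16 alternatives, with adjusted p from 0.0171 to 0.150. Leaving out a library gave 0.130 without tumor library 1, 0.0670 without tumor library 2, and 0.150, 0.0811 and 0.0858 without control libraries 1, 2 and 3.

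The remaining beta decreases, of Pcdhb8, Pcdhb11, Pcdhb15, Pcdhb16, Pcdhb18, Pcdhb20 and Pcdhb22, ran from 1.55-fold for Pcdhb20 to 1.93-fold for Pcdhb8. None of these 7 overlapped between groups or lost its call under any alternative. The 7 genes not called were Pcdhb2, Pcdhb3, Pcdhb6, Pcdhb7, Pcdhb10, Pcdhb19 and Pcdhb21, with log2 fold changes from -0.39 for Pcdhb7 to 0.15 for Pcdhb10. Of these, Pcdhb7 and Pcdhb19 did not overlap between groups and were called lower without tumor library 3, with adjusted p of 0.0433 and 0.0277. Position along the beta cluster went with the change only weakly, with a Spearman correlation of -0.16 across the 22 genes.

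**Figure D3:**
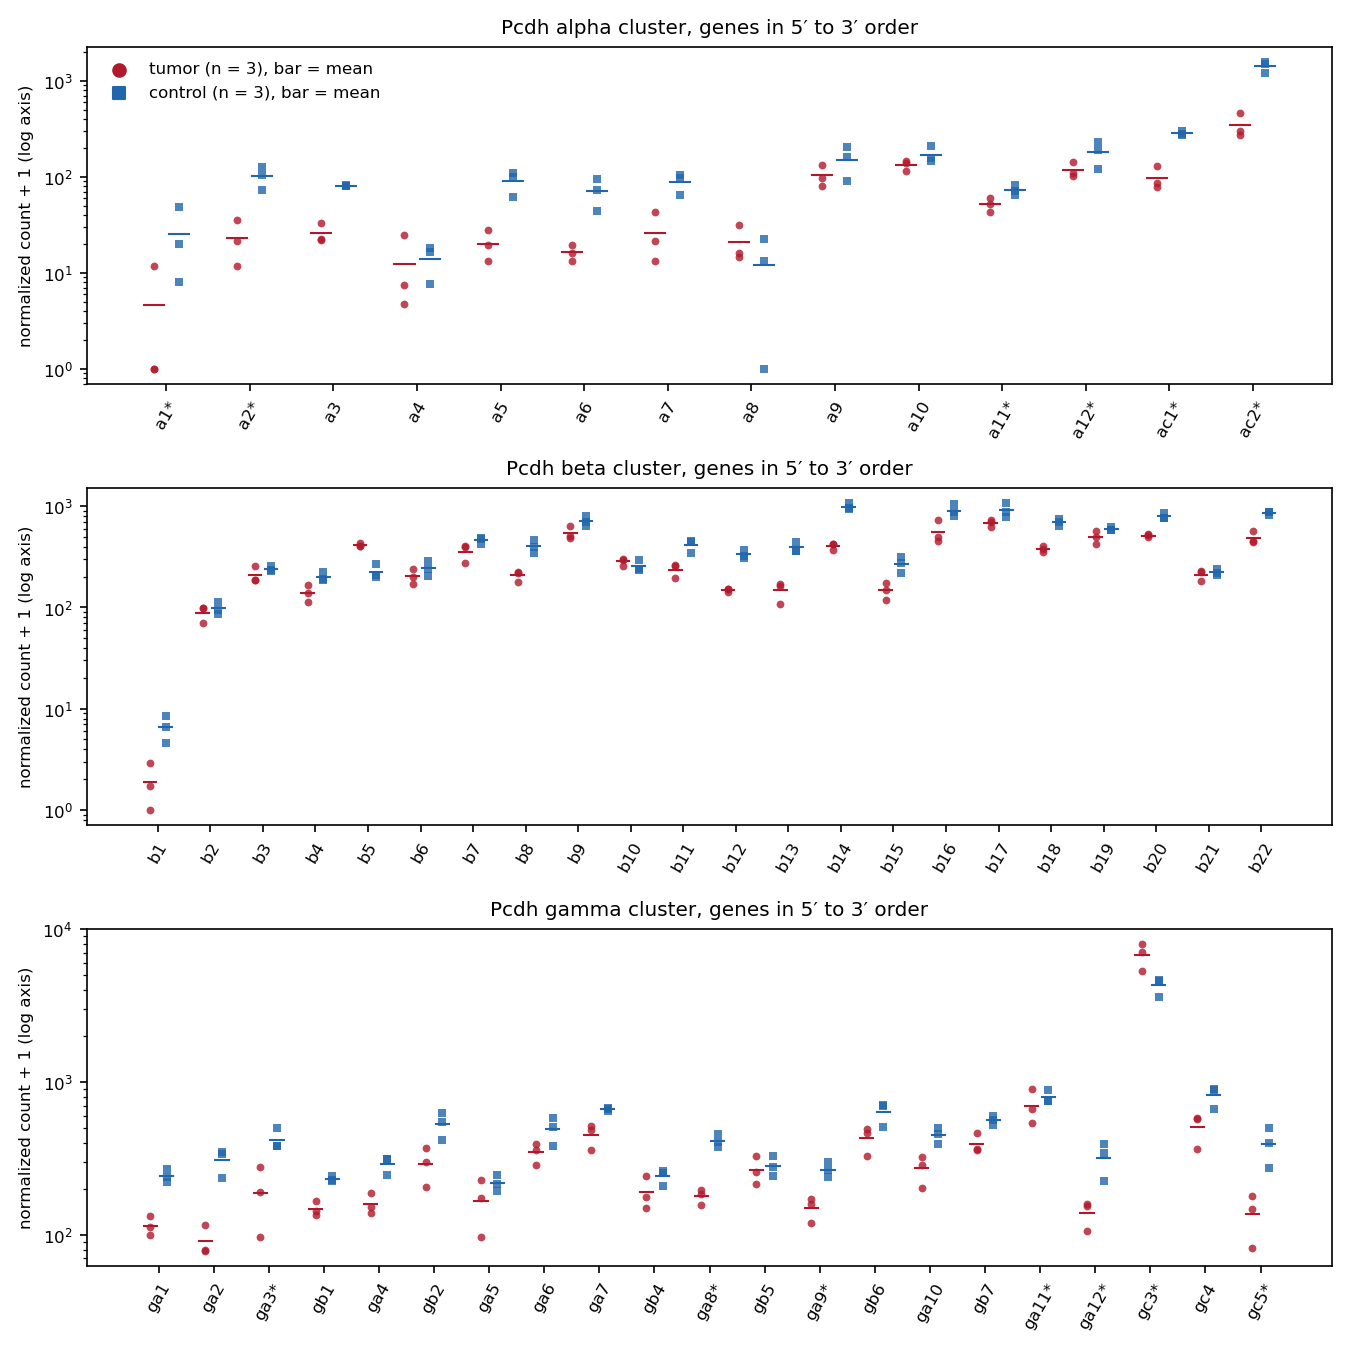
Normalized count + 1 (log axis) of each cluster gene in the 3 tumor (red circles) and 3 control (blue squares) libraries, genes in 5′ to 3′ order, with bars at the group means and an asterisk on genes listed under another symbol. In 39 of the 57 genes all tumor points lie below all control points, and in Pcdhb5 and Pcdhgc3 all lie above. These orders were found in 34.5% and 33.2% of all genes tested.

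The gamma cluster spans 37661793 to 37841873 of chromosome 18. Of its 14 genes matched by the rule, 11 were lower, none was higher and 3 were not called. Their median log2 fold change was -0.62. Over all genes tested, 31.5% were lower and 30.6% higher. Pcdhgc3, listed under another symbol, was called higher and is given further on. No gene was called higher under any alternative over the 14. The count of lower genes was the most dependent on single libraries: it was 7 without control library 2 and 13 without tumor library 3. The genes fall by sequence into A and B groups, whose separate roles are not known, and 6 of 7 A genes and 4 of 6 B genes were lower. The last member, Pcdhgc4, is a C-type gene.

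Pcdhga2 had the largest decrease of the gamma cluster. It had 78.7, 77.5 and 115 normalized counts in tumor, against 236, 339 and 348 in control, a 3.38-fold decrease (log2 fold change -1.76 ± 0.24, SE, adjusted p = 0.000131, limma). Pcdhga1, just before it, had 111, 98.3 and 131 in tumor, against 221, 268 and 239.5 in control, a 2.14-fold decrease (adjusted p = 0.00078, limma). In both genes the tumor libraries all lay far below the control libraries. Pcdhga4 had 138, 152 and 186 in tumor, against 246, 312 and 313 in control, a 1.83-fold decrease (adjusted p = 0.00285, limma). Pcdhga10 had 203, 287 and 324 in tumor, against 393, 457 and 501 in control, a 1.68-fold decrease (adjusted p = 0.00747, limma). Neither gene overlapped between groups. The own exon of Pcdhga10 is covered by exons of the long noncoding RNA Gm26672 on the other strand, which was also lower, at 46.2, 40.6 and 39.4 in tumor, against 116, 97.5 and 102 in control (adjusted p = 0.00138, limma). Whether strand was used in counting was not given in the sources used here, and reads of the 2 genes cannot then be told apart.

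Pcdhga7 and Pcdhga6 had the smallest called decreases of the A group. Pcdhga7 had 357, 511 and 483 in tumor, against 649, 679 and 669 in control, a 1.49-fold decrease (adjusted p = 0.00762, limma). Pcdhga6 had 287, 356 and 394 in tumor, against 383, 506 and 577 in control, a 1.41-fold decrease (adjusted p = 0.0436, limma). Pcdhga6 was the called member whose groups overlapped, and its call was lost in 7 of 16 alternatives, with adjusted p from 0.0132 to 0.177. Among these it was 0.143 without tumor library 1, 0.0675 without tumor library 2, 0.128 without control library 2 and 0.177 without control library 3. Pcdhga5 was not called, at 96.0, 172 and 229 in tumor, against 193, 214 and 246 in control, but reached an adjusted p of 0.0383 without tumor library 3.

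In the B group, Pcdhgb2 had 204, 299.6 and 369.9 in tumor, against 415, 550.5 and 627 in control, a 1.85-fold decrease (adjusted p = 0.00798, limma). Pcdhgb1 had 165, 142 and 135 in tumor, against 226, 227 and 242 in control, a 1.57-fold decrease (adjusted p = 0.00877, limma). Neither overlapped between groups, and both calls held under every alternative. Pcdhgb6 averaged 427 ± 86.1 in tumor and 638 ± 113 in control, a 1.499-fold decrease (adjusted p = 0.0228, limma). Pcdhgb7 averaged 394 ± 58.1 in tumor and 562 ± 40.1 in control, a 1.43-fold decrease (adjusted p = 0.0104, limma). The Pcdhgb6 call was lost in 5 of 16 alternatives (adjusted p 0.00309 to 0.0965), among them those without tumor library 1 (0.0776), control library 2 (0.0965) and control library 3 (0.0907). That of Pcdhgb7 was lost without control library 2 (0.0511; range 0.00245 to 0.0511). Pcdhgb4 and Pcdhgb5 were not called, with log2 fold changes of -0.37 and -0.10. Without tumor library 3, Pcdhgb4 had an adjusted p of 0.0321.

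Of the A genes listed under another symbol, 4 of 5 were lower, where 31.5% of all genes tested were lower. Pcdhga3, Pcdhga8 and Pcdhga12 fell 2.42-fold, 2.30-fold and 2.27-fold, and Pcdhga9 fell 1.80-fold. Pcdhga8 showed it most evenly, with 195, 156 and 184 in tumor, against 403, 454 and 377 in control. Pcdhga11 was not called, at 701 ± 179 in tumor and 795 ± 84.4 in control, although its adjusted p was 0.0365 without tumor library 3.

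The 5 C-type genes were all called, 4 lower and 1 higher, where 31.5% of all genes tested were lower and 30.6% higher. The 1 that rose, Pcdhgc3, is the gene whose inner domain binds Axin1 and inhibits Wnt signalling in mouse. It had 5346, 7989 and 7115 normalized counts in tumor libraries 1, 2 and 3, against 3589, 4611 and 4679 in control libraries. All tumor libraries lay above all control libraries, and the log2 fold change was 0.66 ± 0.15 (SE), a 1.58-fold increase with an adjusted p of 0.00421 in limma that held under every alternative. It was the most abundant cluster gene per length of its own exon, at 2017 normalized counts per kilobase in tumor and 1270.1 in control. Its share of all gamma counts was 56.2% ± 3.45 in tumor and 33.3% ± 0.762 in control (SD, n = 3). Part of its own exon is overlapped on the other strand by the antisense gene BC037039, which was also higher but far less abundant, at 195.7, 205 and 219 in tumor, against 108, 111 and 126 in control (adjusted p = 0.00284, limma).

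Pcdhac2, which in mouse is needed for the spacing of serotonergic axons, fell the most of the C-type genes. It had 272, 303 and 460.4 normalized counts in tumor, against 1204, 1563 and 1515 in control, a 4.21-fold decrease (log2 fold change -2.07 ± 0.20, SE, adjusted p = 9.68e-06, limma). Its highest tumor library was under its lowest control library by a wide margin, and its share of all alpha counts was 34.6% ± 3.63 in tumor and 51.8% ± 1.09 in control. Pcdhac1 had 77.3, 85.05 and 128 in tumor, against 270.2, 299.6 and 281 in control, a 2.98-fold decrease (adjusted p = 0.000182, limma). Pcdhgc5, whose protein binds GABA-A receptors in rodent neurons, had 80.9, 147 and 179 in tumor, against 272, 498 and 399.9 in control, a 2.92-fold decrease (adjusted p = 0.00184, limma). None of these 3 overlapped between groups, and all 3 calls held under every alternative. Pcdhgc4, required in mouse for the survival of interneurons, is the 1 C-type gene among the 44. It had 366, 572 and 579 in tumor, against 661, 891 and 900.3 in control, a 1.63-fold decrease (adjusted p = 0.0111, limma). The groups did not overlap, but the call was lost without control library 2 (adjusted p = 0.0531) and without control library 3 (0.0530), in a range of 0.000635 to 0.0531 over its alternatives.

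**Figure D4:**
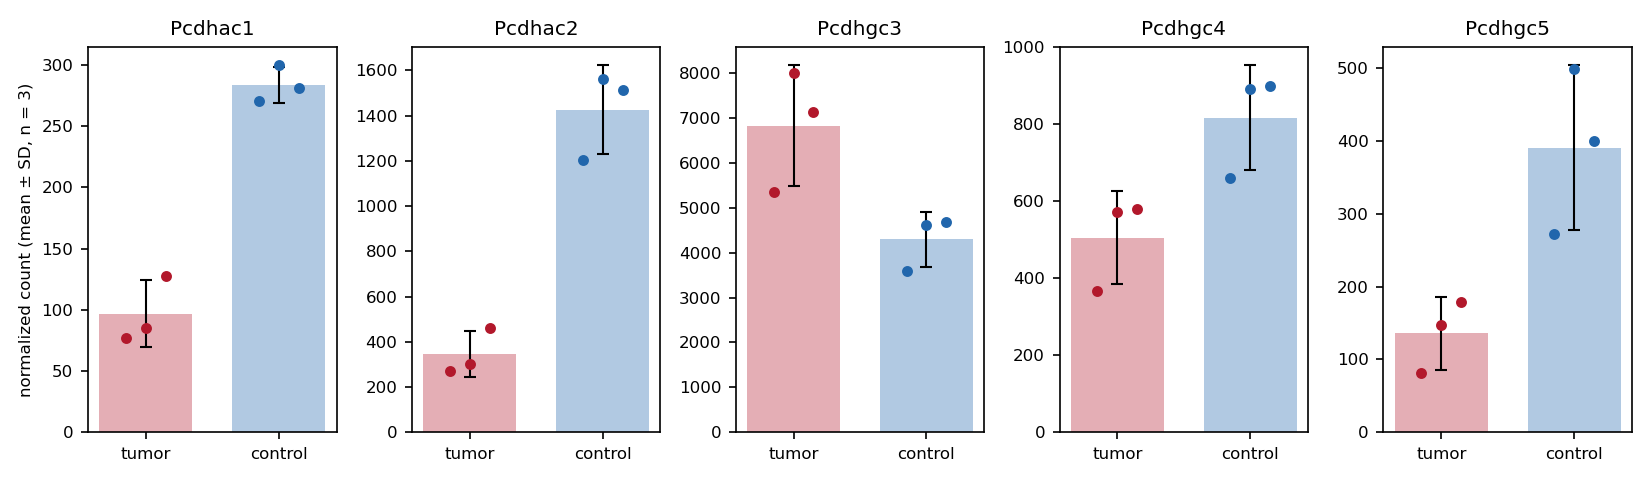
Normalized counts of the 5 C-type genes in tumor (red, left) and control (blue, right) cerebellum, with 1 point per library and bars giving the mean ± SD of 3 libraries. Pcdhgc3 is higher in tumor (6817 ± 1346 and 4293 ± 611), while the other 4 are lower, Pcdhac2 the most (345 ± 101 and 1427 ± 195).

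Per length, the order of the levels within a cluster was similar in both groups, least so in the beta cluster. The levels here are normalized counts per kilobase of exon that no other gene of the same strand shares. Overlap with genes of the other strand was left in, and whether strand was used in counting was not given. The Spearman correlation between the tumor and control levels was 0.92 across the 21 gamma genes. It was 0.81 across the 14 alpha genes and 0.70 across the 22 beta genes, with the same size factors behind all points. Both levels of a gene were divided by the same length, which can by itself raise the correlation. Among the 44, the highest tumor levels were those of Pcdhb9 with 177, Pcdhgb6 with 166 and Pcdhgb7 with 152 normalized counts per kilobase. In control Pcdhgb6 led with 249, ahead of Pcdhgc4 with 235 and Pcdhb9 with 231. The steps between neighbours in these orders were smaller than the SD of either gene's counts over its length. The lowest level was that of Pcdhb1, with 0.336 in tumor and 2.14 in control. Pcdha6, the next lowest in tumor at 6.73, had 30.8 in control.

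All alpha and gamma genes share exon bases with others of their cluster, at least 2860 bases for each alpha and at least 2116 for each gamma gene. How reads in the shared exons were counted was not given in the sources used here. Pcdha1, at 0 reads in tumor libraries 1 and 2 while the other alpha genes had reads, shows that reads in the shared alpha exons were not credited to it. Gm42416, Gm37013 and Gm37388, protein-coding read-through genes of the region, had 0 reads in all 6 libraries. Whether this held for every alpha and gamma gene was not tested.

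Library 3 of the tumors stood above the other tumor libraries in most of the 44 genes. It was the highest tumor library in 37 of 44 (84.1%), beside 37.2% of all genes tested. Control library 1 was the lowest control in 32 of 44 (72.7%), beside 36.5% of all genes tested, and in all 14 gamma genes. Tumor library 3 also had the highest sums of several neuronal and glial marker lists. Its mature granule neuron markers summed to 56335, against 33733 and 35804 in tumor libraries 1 and 2, its Purkinje markers to 98249, against 53412 and 56849, its interneuron markers to 15185, against 9641 and 10569.6, and its oligodendrocyte markers to 167642, against 88248 and 66465. All of these stayed under the control sums, which were 586003 to 592312 for Purkinje cells, 91708 to 95516 for interneurons and 709762 to 868159 for oligodendrocytes. The choroid plexus markers ran the other way in that library, at 10669, against 45582 and 37080 in tumor libraries 1 and 2 and 139933 to 240802 in control. The part of these cell types in the protocadherin changes was not tested. Without tumor library 3 the numbers of genes called lower were 4 alpha, 15 beta and 13 gamma, and without control library 1 they were 5, 11 and 11.

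Promoter choice in the clusters depends on CTCF and on cohesin, a general chromatin complex with its own loaders, releasers and acetyltransferases. Of 15 genes of this machinery, 12 were higher and 3 lower, where 30.6% of all genes tested were higher, with a median log2 fold change of 0.81. Ctcf, whose protein binds the protocadherin promoters and enhancers, had 12974, 11885 and 12842 normalized counts in tumor, against 7263, 7232 and 7042 in control, a 1.75-fold increase (adjusted p = 7.87e-06, limma). Rad21, a cohesin subunit known to be needed for their expression in a human cell line, averaged 31347 ± 2574 in tumor and 14674 ± 274 in control. The largest increases were those of the cohesin acetyltransferase Esco2, at 4319.6 ± 502 in tumor and 25.1 ± 19.3 in control, and of Cdca5, which holds cohesin on replicated DNA, at 2058 ± 273 in tumor and 11.6 ± 4.27 in control. Both act in dividing cells, and the 12 cycling markers summed to 141528 to 159746 in tumor libraries and 4124 to 4625 in control libraries. Their part in the increase of these genes was not tested. The 3 that were lower were the cohesin deacetylase Hdac8 (1.56-fold), the acetyltransferase Esco1 (1.20-fold) and the loader subunit Mau2 (1.16-fold).

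Of 17 genes of DNA methylation, its removal and chromatin silencing, 11 were higher, 3 lower and 3 not called, beside the same 30.6% higher over all genes. Their median log2 fold change was 0.74. Among the higher genes were Tet1, Tet2 and Tet3, whose enzymes act in removing DNA methylation, at 1.28-fold, 1.48-fold and 1.66-fold. Dnmt3b, the methyltransferase that methylates the alternate promoters in mouse embryos, had 374, 463 and 389.6 normalized counts in tumor, against 108, 71.3 and 105 in control, a 4.33-fold increase (adjusted p = 1.44e-05, limma). Smchd1, which represses clustered protocadherins in mouse, averaged 9917 ± 843 in tumor and 4190.0 ± 107 in control, a 2.36-fold increase (adjusted p = 9.55e-07, limma). Setdb1, a histone methyltransferase that shapes the folding of the clusters in mouse neurons, was 1.77-fold higher. Uhrf1, the partner of the maintenance methyltransferase in dividing cells, averaged 7851 ± 777 in tumor and 49.0 ± 6.11 in control. Lrif1, which works with Smchd1, was 1.39-fold lower, and the methyltransferase Dnmt3a was 1.30-fold lower. No direct reading of methylation or binding stands behind these levels, which are those of the regulators' own transcripts.

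Genes of proteins that bind clustered protocadherins or carry their signals were called at shares near those of all genes tested. Of 25, 8 were higher, 9 lower and 8 not called, where 30.6% of all genes were higher and 31.5% lower, with a median log2 fold change of 0.05. Marcks, an actin regulator through which the gamma proteins act on dendrites, had 82741, 62416 and 70053 normalized counts in tumor, against 20508, 17808 and 18863 in control, a 3.74-fold increase (adjusted p = 4.54e-07, limma). Axin1, the partner of Pcdhgc3, was 1.95-fold higher, and the WAVE complex subunit Wasf2 was 2.02-fold higher. Cyfip2, another subunit of the WAVE complex that alpha proteins recruit, had 6534, 6214 and 7869.7 in tumor, against 29325, 31732 and 28896 in control, a 4.38-fold decrease (adjusted p = 9.41e-08, limma). The receptor kinase Ret, which binds alpha and gamma proteins, was 2.37-fold lower.

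Other cadherins are read against the same shares, 30.6% higher and 31.5% lower over all genes tested. Of 14 non-clustered protocadherins 3 were higher, 5 lower and 6 not called, with a median log2 fold change of -0.41. Pcdh18 averaged 3906 ± 459 normalized counts in tumor and 267 ± 43.9 in control, and Pcdh9 averaged 1891 ± 603 in tumor and 10517 ± 998 in control. Cdhr1, a protocadherin of photoreceptors and olfactory bulb, was 5.32-fold higher, and Pcdh1 was 2.83-fold lower. Of 10 genes, the CELSR, FAT and Dachsous cadherins and Fjx1, 5 were higher and 5 lower, with a median log2 fold change of 0.27. Fjx1, which is not a cadherin, was among the lower genes (1.69-fold). Celsr1, of planar cell polarity, was 11.3-fold higher and Dchs1 6.37-fold higher, while Fat2, a gene of granule neurons, was 7.98-fold lower and Fat1 2.73-fold lower. Of 22 classical cadherins and catenins 6 were higher, 14 lower (63.6%) and 2 not called, with a median log2 fold change of -0.77. That lower share is near the 65.9% of the 44 clustered genes, and the median lies below their -0.61. Cdh20 was 6.22-fold and Cdh4 3.62-fold higher, and Cdh12 was 10.04-fold and Cdh18 8.86-fold lower.

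**Figure D5:**
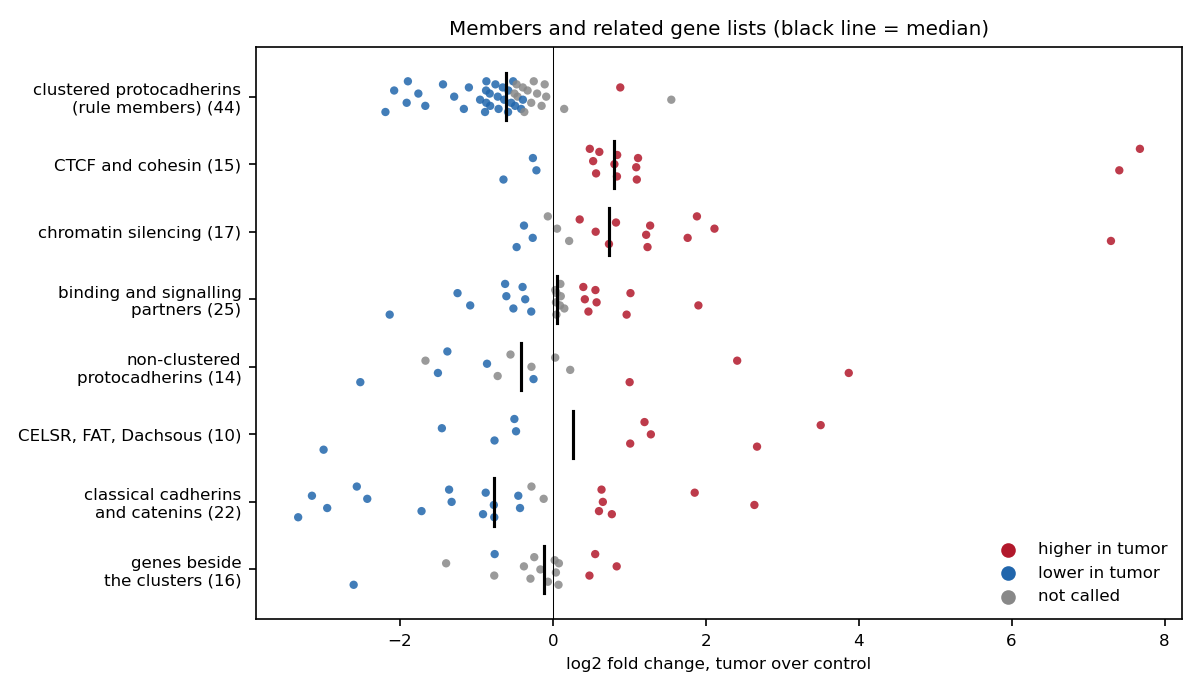
Log2 fold change, tumor over control (horizontal axis), of the 44 clustered protocadherins and of genes in 7 related lists, with 1 point per gene, colored by call, and a black line at each median. The clustered genes have a median of -0.61, and the classical cadherins and catenins have one of -0.77. The median is 0.81 for the CTCF and cohesin list. It is 0.74 for the chromatin silencing list, which also holds Tet1, Tet2 and Tet3.

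Of 16 genes beside the clusters on the chromosome, 3 were higher, 2 lower and 11 not called, where 30.6% of all genes tested were higher and 31.5% lower, with a median log2 fold change of -0.11. Taf7, which lies between the beta and gamma clusters, had 1301, 1132 and 1429 normalized counts in tumor, against 1464, 1489.7 and 1349 in control, and was not called (adjusted p = 0.224, limma). Diaph1, next to the 3′ end of the gamma cluster, averaged 2273 ± 149.7 in tumor and 2206 ± 86.7 in control. Both of these nearest neighbours overlapped between groups. Wdr55 and Hdac3 were 1.79-fold and 1.47-fold higher, Fchsd1 was 1.69-fold lower, and Rell2 was 6.07-fold lower, with 188, 313 and 389 in tumor, against 1636, 1839 and 1715 in control.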

How the data were processed

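Per the labels' protocols, TRIzol and RNeasy were used for total RNA and a TruSeq RNA kit for the libraries. FastQC, featureCounts, edgeR, Bowtie2 2.2.4 and the build mm10 are named, with no role, in the submitters' processing notes. Annotation release, counting options and strand were not given in the sources used here. The authors' deposited table of 43629 genes gives 1 signal per gene and library, which is the read count over that library's size factor: 100% of values were whole reads to within 1e-06 of a read. It also gives a fold, a p-value and an FDR for tumor against control, per the file headers. In the cluster genes that fold equalled the tumor mean over the control mean. A shorter list, also deposited, gives p-values and FDR. Neither the folds nor the p-values were used.

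Groups and replicate numbers came from the sample titles. Because the values are normalized, limma 3.58.1 (R 4.3.3) with a mean-variance trend was run on log2(value + 1) over the 22117 genes above a value of 1 in 3 or more libraries. Folds are on this scale, so for a low gene they can be smaller than its ratio of means or, with a library at 0, larger. Genes were called at an adjusted p (Benjamini-Hochberg, all tested genes) under 0.05. The script was tested on simulated data. Alternatives were edgeR 4.0.16 and DESeq2 1.42.0 on recovered reads, other pseudocounts, filters and scalings, no trend, a replicate block and leaving out each library. All pairs of libraries differed beyond sampling noise. Exon overlap and names were read from GENCODE M21 (GRCm38) and RefSeq.

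The genes and the 19 lists, with 256 entries all found in the table, were chosen with earlier results of these data known. The naming rule takes the 5 C-type genes, the called genes with the 3 largest and 3 smallest log2 fold changes in each of the alpha, beta, gamma A and gamma B groups, and from each other list those with the 2 largest and 2 smallest. Other genes were named after their values were seen.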

Additional observations from a re-analysis of the deposited data

How the results depend on the processing

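Of the 30 called genes among the 44, 22 kept their call in all 16 alternatives, and 5 of the 14 uncalled genes were called in some of them. Leaving out 1 library at a time gave 7 to 13 lower gamma genes. With the genes found by Ensembl identifier, an alternative chosen after seeing the data, 8 alpha genes were lower, 1 gamma gene was higher, and the summed ratios were 0.358 for alpha and 0.943 for gamma. Among uncalled genes the sign turned for Pcdha4 (log2 fold change -1.14 to 0.043 when 1 library was left out), Pcdhb2 (-0.24 to 0.024), Pcdhb21 (-0.15 to 0.021, and 0.012 with library totals) and Pcdhgb5 (-0.26 to 0.041). The cause was not tested. Same-numbered libraries did not deviate together over the genes tested (correlations of 0.022, -0.051 and -0.0073), so no pairing by number was seen. With 3 libraries in each group this check cannot exclude one. With a replicate block the lower genes numbered 4 alpha, 13 beta and 11 gamma, and 13687 genes were called, against 13738 without it. Genes with few reads, such as Pcdhb1 and Pcdha1, are limited by depth.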

Other observations

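Of 15 tested noncoding or pseudogene rows between the protocadherin genes, 3 were higher, 2 lower and 10 not called, where 30.6% of all genes tested were higher and 31.5% lower. The long noncoding RNA Gm10544 had 70.1, 29.3 and 67.9 normalized counts in tumor libraries 1, 2 and 3, against 21.2, 19.0 and 18.2 in control libraries, and no tumor library overlapped with control (log2 fold change 1.37 ± 0.41, SE, adjusted p = 0.0149, limma). The pseudogene Gm19035 had 30 reads over the 3 tumor libraries and 1 over the 3 control libraries (adjusted p = 0.00381, limma). The antisense gene Gm37446 had 1 read in tumor and 13 in control (adjusted p = 0.0111, limma). The long noncoding RNA 3222401L13Rik was not called, with 205 ± 22.7 in tumor and 197 ± 16.1 in control.

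Pcdhgb8, a polymorphic pseudogene of the gamma cluster and so outside the protein-coding genes, had 39.7, 27.4 and 47.2 normalized counts in tumor, against 63.7, 51.1 and 51.3 in control. All tumor libraries lay below all control libraries, but the gene was not called (log2 fold change -0.55 ± 0.32, SE, adjusted p = 0.163, limma). The transcripts named here were chosen after their values were seen.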
